A study of Homo sapiens with 5 samples.

Results

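Common fragile sites are chromosome regions that break or form gaps at metaphase when DNA replication is slowed. Many of them lie in very long genes, and the replication of such genes is known to finish late, with long distances to be covered by forks that start outside or at the edges of the gene. The genes described here are 8 that are known from such sites: FHIT, which encodes a hydrolase of dinucleoside polyphosphates, WWOX, a WW-domain oxidoreductase, MACROD2, a hydrolase that removes ADP-ribose from proteins, LRP1B, a member of the LDL receptor family, CSMD1, a membrane protein with CUB and Sushi domains, IMMP2L, a subunit of the inner mitochondrial membrane peptidase, CNTNAP2, a neurexin-like cell adhesion protein, and DLG2, a scaffold protein of synapses. They were picked by name, without a measured value in the rule but with earlier results of these data known, and are 8 of the 20033 protein-coding gene records of GENCODE 44 on chromosomes 1 to 22, X and Y.

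Replication origins were mapped in EJ30 cells, a human bladder carcinoma line, by 2 methods. In ini-seq 2, nuclei of cells held in late G1 phase by mimosine were incubated in a cytosolic extract of HeLa cells with Br-dUTP, which weighs down the newly made strand, so that copied DNA (heavy-light, HL) could be parted from uncopied DNA (light-light, LL). One list of origins came from a reaction of 3 hours, pooled from 2 biological replicates, and one from a reaction of 15 minutes. In SNS-seq, short nascent strands were isolated from cells, small ones of 0.5 to 2 kb and large ones of 2 to 4 kb, and peaks were called against genomic DNA.

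The 3-hour list holds 23905 origins, each with an efficiency, the share HL/(HL + LL) of its reads, from 0.8 upwards. The origins were divided at 0.8419 and 0.9065 into low, medium and high efficiency classes of equal size. The 15-minute list holds 10181 origins with a Z-score, and the SNS-seq lists hold 147657 peaks of the small and 184966 of the large fraction, with positions only. Each condition is a single list without read counts, so no spread between replicates could be computed, no value below has a test behind it, and intervals are exact 95% Poisson or binomial intervals that cover counting error only. EJ30 is a tumour line, and copy number was not examined, so a loss of DNA in one of these genes cannot be told apart from a lack of origins in it.

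Coordinates refer to hg38. FHIT lies at chr3:59747277-61251459 on the minus strand, WWOX at chr16:78099400-79212667 on the plus strand, MACROD2 at chr20:13995369-16053197 on the plus strand and LRP1B at chr2:140231423-142131016 on the minus strand. CSMD1 lies at chr8:2935353-4994972 on the minus strand, IMMP2L at chr7:110662644-111562517 on the minus strand, CNTNAP2 at chr7:146116002-148420998 on the plus strand and DLG2 at chr11:83455012-85628335 on the minus strand.

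The genes measure from 900 kb (IMMP2L) to 2305 kb (CNTNAP2). Intervals were counted within 2 kb of the 5′ end of the gene record, in the rest of the gene, called the gene body, and within 500 kb on each side.

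Only 5 origins were called at 3 hours in the bodies of the 8 genes, and 4 of them are printed first because they differ in sequence from the origins at the 5′ ends. Each is shown 5′ to 3′ on the strand richer in purines (A and G), with the pyrimidines (C and T) that interrupt the purine tract in capitals. The WWOX, MACROD2 and IMMP2L sequences are the whole origin, and the CNTNAP2 sequence is its central 300 bp.
WWOX, chr16:78725901-78726200, minus strand: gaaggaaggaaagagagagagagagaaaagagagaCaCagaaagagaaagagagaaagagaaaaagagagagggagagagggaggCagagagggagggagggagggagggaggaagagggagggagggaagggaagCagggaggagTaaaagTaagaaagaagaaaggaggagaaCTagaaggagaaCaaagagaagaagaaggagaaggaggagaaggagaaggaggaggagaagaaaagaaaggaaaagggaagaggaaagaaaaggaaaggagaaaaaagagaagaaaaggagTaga
MACROD2, chr20:15639801-15640100, plus strand: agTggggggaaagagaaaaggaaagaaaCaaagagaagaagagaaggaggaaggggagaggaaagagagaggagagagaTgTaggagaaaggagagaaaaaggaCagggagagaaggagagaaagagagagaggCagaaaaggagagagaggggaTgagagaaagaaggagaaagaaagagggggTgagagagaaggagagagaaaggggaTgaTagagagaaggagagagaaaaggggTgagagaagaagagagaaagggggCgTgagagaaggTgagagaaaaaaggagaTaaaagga
IMMP2L, chr7:111384101-111384400, plus strand: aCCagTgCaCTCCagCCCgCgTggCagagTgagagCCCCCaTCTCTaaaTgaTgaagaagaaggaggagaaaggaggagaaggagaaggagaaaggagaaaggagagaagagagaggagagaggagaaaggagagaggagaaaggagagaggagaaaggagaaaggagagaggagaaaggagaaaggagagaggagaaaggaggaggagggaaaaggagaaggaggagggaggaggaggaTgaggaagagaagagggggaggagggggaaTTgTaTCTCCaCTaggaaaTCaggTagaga
CNTNAP2, chr7:148135851-148136150, plus strand: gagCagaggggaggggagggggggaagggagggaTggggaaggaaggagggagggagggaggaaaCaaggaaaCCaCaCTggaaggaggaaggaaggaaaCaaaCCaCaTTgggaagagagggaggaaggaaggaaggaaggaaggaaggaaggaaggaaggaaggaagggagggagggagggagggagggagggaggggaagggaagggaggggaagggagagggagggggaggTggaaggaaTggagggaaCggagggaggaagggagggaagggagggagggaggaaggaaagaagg

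For comparison, 300 bp without exon bases are shown from the most and the least efficient origin at a 5′ end, on the coding strand and with CpG dinucleotides in capitals.
MACROD2, chr20:13995810-13996109, plus strand: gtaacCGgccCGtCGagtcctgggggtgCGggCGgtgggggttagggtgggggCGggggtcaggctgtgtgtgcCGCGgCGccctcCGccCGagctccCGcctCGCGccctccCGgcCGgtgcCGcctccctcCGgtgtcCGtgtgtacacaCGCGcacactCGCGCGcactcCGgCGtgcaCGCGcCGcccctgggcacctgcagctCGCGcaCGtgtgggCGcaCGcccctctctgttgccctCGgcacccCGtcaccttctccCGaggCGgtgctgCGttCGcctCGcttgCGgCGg
FHIT, chr3:61251001-61251300, minus strand: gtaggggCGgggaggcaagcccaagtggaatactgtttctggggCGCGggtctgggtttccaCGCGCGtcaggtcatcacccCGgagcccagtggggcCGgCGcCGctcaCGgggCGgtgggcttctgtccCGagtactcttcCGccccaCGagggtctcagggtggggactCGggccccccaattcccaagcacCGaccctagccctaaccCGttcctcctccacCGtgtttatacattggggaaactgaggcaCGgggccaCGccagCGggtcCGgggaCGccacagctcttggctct
The WWOX tract holds 10 pyrimidines in 300 bases and the MACROD2 tract 15, with runs of up to 108 and 50 purines without a break. The IMMP2L tract has 41 pyrimidines, which stand mostly at the ends, around a purine run of 187 bases. In the CNTNAP2 tract 17 pyrimidines interrupt runs of up to 124 purines. CpG is nearly absent from these 4 sequences, with 0 to 2 per sequence, against 43 in the MACROD2 and 24 in the FHIT sequence from the 5′ end.

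At the 5′ ends, 6 of the 8 genes had a 3-hour origin. Among the other 20025 protein-coding genes 57.5% had one, and among the 315 other protein-coding genes of at least 500 kb 48.3% did. A 3-hour origin at the 5′ end was thus common in these genes as it was in others. All 6 origins were centred just inside the gene, 258 to 451 bp downstream of its 5′ end, and had a GC content of 62.0 to 72.0%.

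The MACROD2 origin, at chr20:13995201-13996300, was the most efficient of them with 0.9662, in the high class, and the IMMP2L origin, at chr7:111561901-111562600, followed with 0.9593, also in the high class. Medium efficiencies were found at WWOX (chr16:78099301-78100400, 0.8828), LRP1B (chr2:142130601-142130900, 0.8655) and CNTNAP2 (chr7:146116001-146116900, 0.8652). The FHIT origin, at chr3:61251001-61251400, was in the low class with 0.8052, just over the limit of 0.8 for calling an origin. Origins at 5′ ends thus covered nearly the whole range of efficiencies. By annotation those of WWOX, MACROD2, LRP1B and CNTNAP2 overlapped UTR and coding sequence, and those of FHIT and IMMP2L overlapped UTR.

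After 15 minutes 3 of the 8 genes, WWOX, MACROD2 and IMMP2L, already had an origin at the 5′ end, against 40.4% of all other protein-coding genes and 41.3% of the other long ones. Each of them overlapped the 3-hour origin, and their Z-scores were -0.39, -0.84 and 0.40. MACROD2 and IMMP2L, the only members in the high class at 3 hours, were among them, and FHIT, in the low class, was not.

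SNS-seq peaks of either fraction were present at the 5′ end of 7 of the 8 genes, a share that was 77.7% among all other protein-coding genes and 73.7% among the other long genes. FHIT was the exception. Its nearest peaks lay 15.6 kb from the origin in the small fraction and 56.6 kb in the large one, so that its 5′ end was called by ini-seq 2 at 3 hours alone. At WWOX, MACROD2, LRP1B, IMMP2L and CNTNAP2 a peak overlapped the 3-hour origin.

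**Figure D1:**
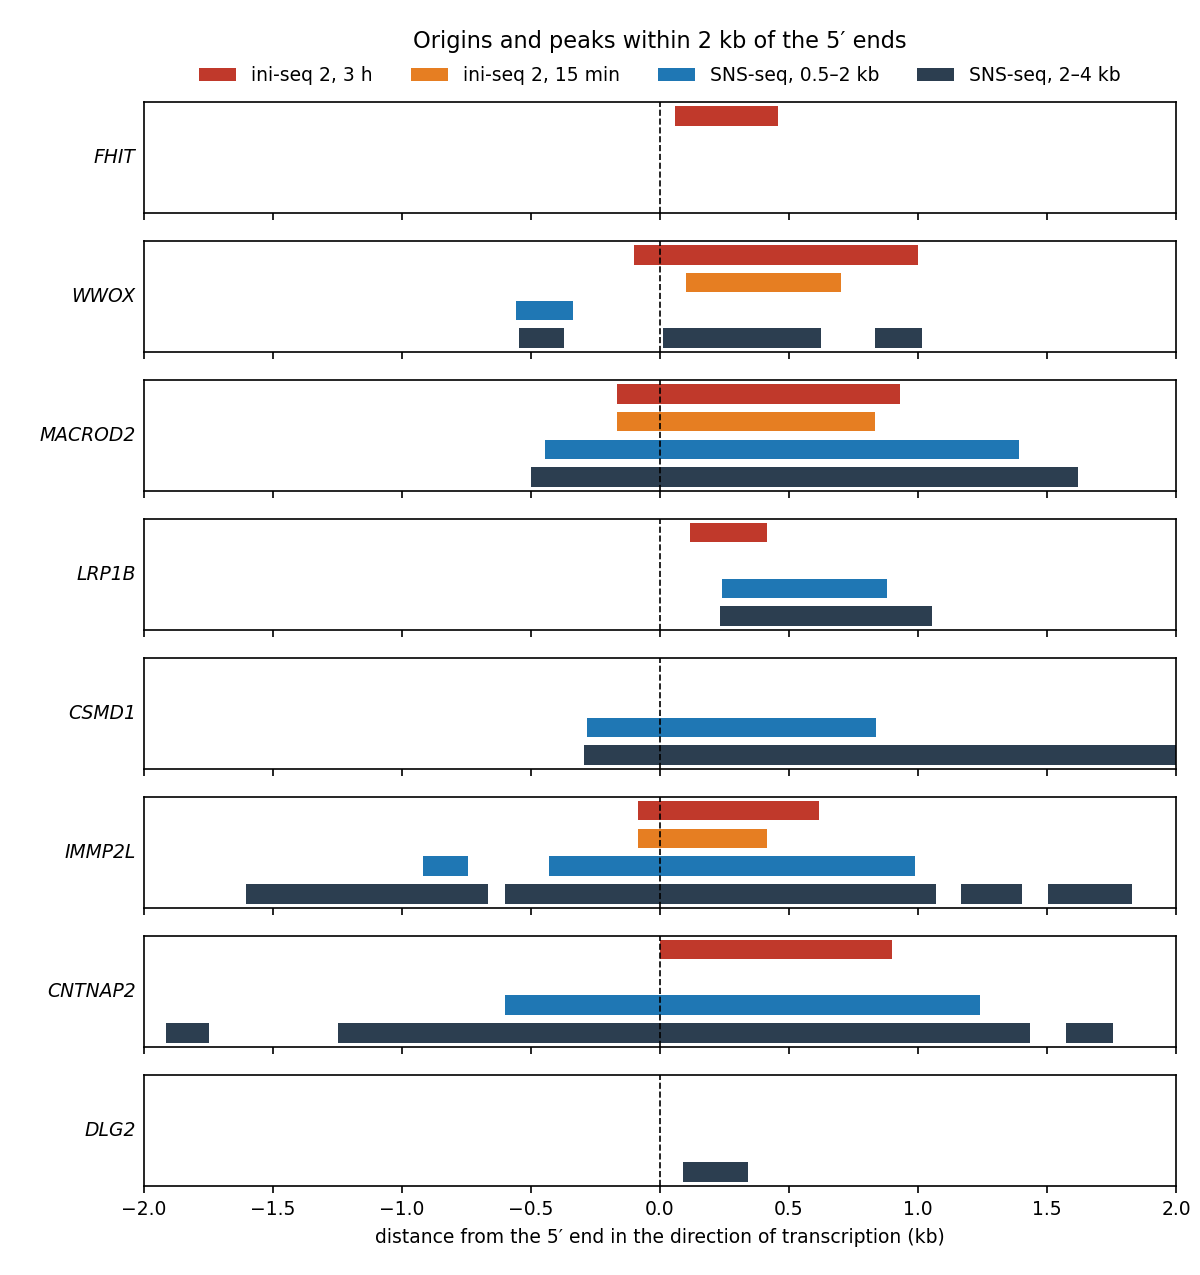
Intervals of the 4 lists from 2 kb upstream to 2 kb downstream of the 5′ end of each gene, drawn in the direction of transcription (x axis in kb, dashed line at the 5′ end, one colour per list, intervals cut at the edge of the window). FHIT has an ini-seq 2 origin and no SNS-seq peak, CSMD1 and DLG2 have SNS-seq peaks and no ini-seq 2 origin, and the other 5 genes have both.

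CSMD1 and DLG2 showed the opposite picture, with SNS-seq peaks and no ini-seq 2 origin. At the CSMD1 5′ end lay a peak of 1120 bp in the small fraction and one of 4470 bp in the large fraction, yet the nearest 3-hour origin was 1411 kb away. The base composition there was not unlike that of the other members. The 1 kb around the CSMD1 5′ end had a GC content of 59.7% and a ratio of observed to expected CpG of 0.708, within the ranges of 55.5 to 62.9% and 0.681 to 0.866 at the 6 genes with an origin. DLG2 had a GC content of 57.5% and a CpG ratio of 0.621, a single peak of 252 bp in the large fraction, and its nearest 3-hour origin 35765 bp away, at the start of CREBZF.

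The gene bodies, 14 Mb together, held 5 origins at 3 hours, or 0.357 per Mb (95% interval 0.116 to 0.834). They were 1 each in WWOX, MACROD2, IMMP2L, CNTNAP2 and DLG2. FHIT, LRP1B and CSMD1 had none, and 50.2% of the other long genes had none either. Those genes were shorter, with a median length of 716 kb against 1979 kb in the members. The shares and medians given here were not compared at equal length. The pooled value in the other long genes was 1.72 per Mb (1.57 to 1.89), but it rests on a few genes with many origins, up to 33 in one body. At most 1 body origin was found in all 8 members and in 78.4% of the other long genes. The median over genes was 0.447 per Mb in the members and 0 in the other long genes. Across the whole genome there were 8.14 origins per Mb.

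**Figure D2:**
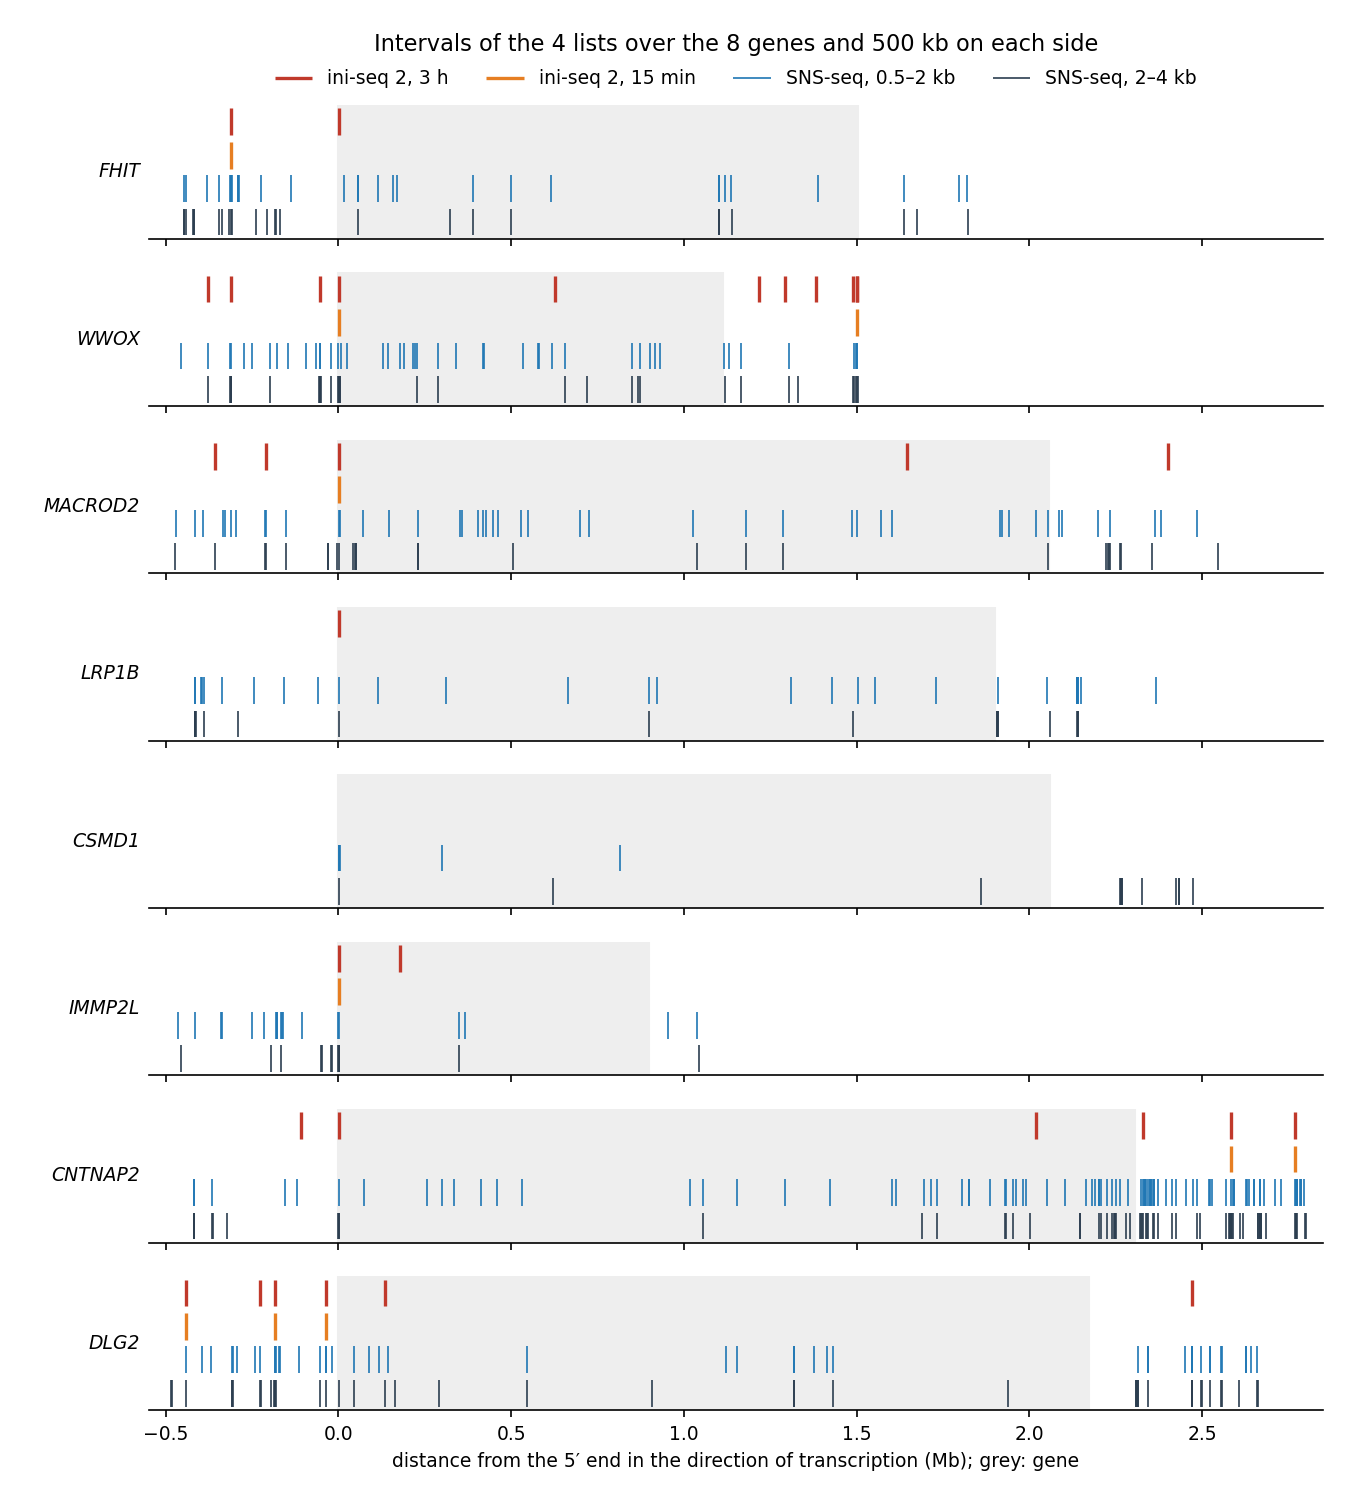
Intervals of the 4 lists along the 8 genes and 500 kb on each side, as vertical ticks against the distance from the 5′ end in Mb in the direction of transcription, with the gene shaded in grey. The 3-hour origins stand at the left edge of 6 genes, 5 lie within a gene, and no 15-minute origin lies in a gene body.

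All 5 body origins were intronic and lay from 134.6 kb (DLG2) to 2020 kb (CNTNAP2) from the 5′ end of their gene. They were found in intron 8 of WWOX, intron 8 of MACROD2, intron 3 of IMMP2L, intron 16 of CNTNAP2 and intron 3 of DLG2, counted in the canonical transcript. Exons and transcript starts were looked up around these sites, and repeats were not. The nearest exon of any transcript was between 1939 bp (CNTNAP2) and 30739 bp (WWOX) away. No transcript of any gene started within 2 kb, although 1 started 2.116 kb from the CNTNAP2 origin. The origins were 300 bp long, or 400 bp in CNTNAP2, while the median over all 3-hour origins was 700 bp.

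Their efficiencies were 0.8646 (WWOX), 0.8243 (MACROD2), 0.848 (IMMP2L), 0.8763 (CNTNAP2) and 0.8239 (DLG2), in the low or medium class and with a single value above the median of 0.8726 over all origins. None was called after 15 minutes, against 40.1% of all 3-hour origins. None overlapped an SNS-seq peak, against 91.6% of all 3-hour origins and 76.9% of the 441 in the bodies of other long genes, although the DLG2 origin ended 43 bp from a peak of the large fraction. The body origins were therefore a result of 1 of the 4 lists.

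Purines made up 96.7% of 1 strand of the WWOX origin, 95% of the MACROD2, 88.3% of the CNTNAP2, 86.3% of the IMMP2L and 83.3% of the DLG2 origin, counted on the purine-richer strand over the whole origin. The median over all 3-hour origins was 53.0%, and 2.84% of them (95% interval 2.63 to 3.05) reached 80%, a limit chosen after these values had been seen. In the bodies of the other long genes 11.3% (8.53 to 14.7) reached it. The GC content of the 5 body origins, 46.3 to 56.8%, was also below the median of 67%. Of the 1423 origins of the genome with less than 60% GC, 576 reached 80% purines. A high purine share was thus common among origins of low GC content and not particular to these genes. At the 5′ ends, by contrast, the purine share of the 6 origins was 50.8 to 55%.

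The lack of other calls at such tracts was not particular to these genes. Of the 678 origins of the genome with at least 80% purines on 1 strand, 8.55% overlapped an SNS-seq peak and 0.590% had been called at 15 minutes. Their efficiencies were not low, with a median of 0.8778.

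**Figure D3:**
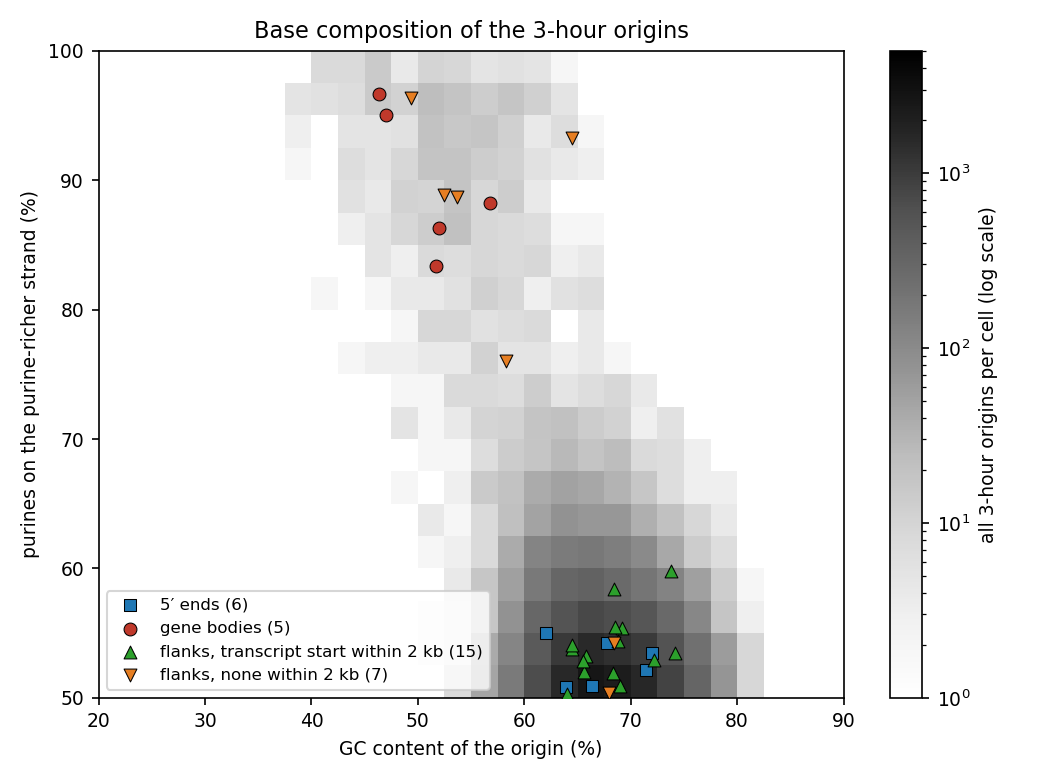
GC content (x axis, %) and share of purines on the purine-richer strand (y axis, %) of every 3-hour origin in or near the 8 genes, over a grey map of all 23905 origins whose shade gives the number per cell on a log scale. Origins at the 5′ ends (squares) and in flanks with a transcript start (triangles) lie in the dense region of high GC, while the 5 body origins (circles) and 4 of the flank origins without a start lie above 80% purines.

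Only a part of the purine tracts in these genes carried an origin. Searched in windows of 300 bp, with at least 80% purines on 1 strand and a GC content of at least 45%, the 8 gene bodies held 30 separate tracts, and 5 of them, or 16.7% (exact 95% interval 5.64 to 34.7), overlapped a 3-hour origin. Over the whole genome it was 15.7% of 7628 tracts (14.9 to 16.5). Both limits let in all 5 body origins, whose lowest values were 83.3% purines and 46.3% GC, so the count of 5 was fixed in advance. At a limit of 90% purines the values were 3 of 11 tracts in the members and 28.8% of 2608 in the genome. FHIT held no such tract at the lower limit and LRP1B 1, both without a body origin, but CSMD1 held 7 and had no origin at any of them. None of the 30 tracts overlapped an SNS-seq peak, against 14.8% of the tracts of the genome.

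Within 500 kb outside the genes 22 origins were called at 3 hours, or 2.76 per Mb (1.73 to 4.17), against 4.85 per Mb (4.61 to 5.10) beside the other long genes. They were unequally spread, with 9 beside WWOX, 5 beside DLG2, 4 beside CNTNAP2, 3 beside MACROD2, 1 beside FHIT and none beside LRP1B, CSMD1 and IMMP2L. Without WWOX, which alone has 9, the density was 1.86 per Mb. The flank origins were then divided by whether a transcript started within 2 kb.

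Of the 22, 15 had a transcript start within 2 kb, among them those of PTPRG beside FHIT, NUDT7, VAT1L and MAF beside WWOX, TASP1 and the pair ESF1 and NDUFAF5 beside MACROD2, CUL1 and EZH2 beside CNTNAP2, and CREBZF, SYTL2, CCDC83, PICALM and PCF11 beside DLG2. All 15 overlapped an SNS-seq peak and 7 had been called at 15 minutes. The other 7 had no start within 2 kb. Of these 2 overlapped an SNS-seq peak and none was called at 15 minutes, and in 4 of them at least 80% of 1 strand were purines: 3 lay downstream of WWOX, with 96.3%, 88.9% and 93.3% purines, and 1 upstream of CNTNAP2, with 88.7%. The 2 with an SNS-seq peak, also beside WWOX, had 54.2% and 50.4% purines, and the 1 left, beside MACROD2, had 76.0%. Purine tract origins like those inside the genes therefore also occurred next to them, at WWOX above all.

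The longest stretch without a 3-hour origin that reached into each gene was 4.40 Mb at CSMD1, 2.79 Mb at LRP1B, 2.58 Mb at IMMP2L, 2.34 Mb at DLG2, 2.20 Mb at FHIT, 2.02 Mb at CNTNAP2, 1.64 Mb at MACROD2 and 0.626 Mb at WWOX. The median over the 8 genes was 2.27 Mb. Neighbouring origins of the genome were a median of 22.7 kb apart, and 95% of such distances were at most 488 kb, so that every member exceeded that length. Among all 23929 stretches of the genome the one at CSMD1 was the 44th longest, and that at WWOX the 919th.

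Measured against other long genes the members stood out less. The median of the longest stretch over the 315 other genes was 1.09 Mb, with quartiles of 0.690 and 2.06 Mb, but these genes were shorter, with a median length of 716 kb against 1979 kb in the members. A stretch longer than that of CSMD1 was found at 22 of them, or 6.98%, while 80% had a longer one than WWOX. All 8 members had a stretch that covered at least 50% of the gene, as did 85.1% of the other long genes. This count is tied to that of body origins, of which no member had more than 1, so it is not a separate result.

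**Figure D4:**
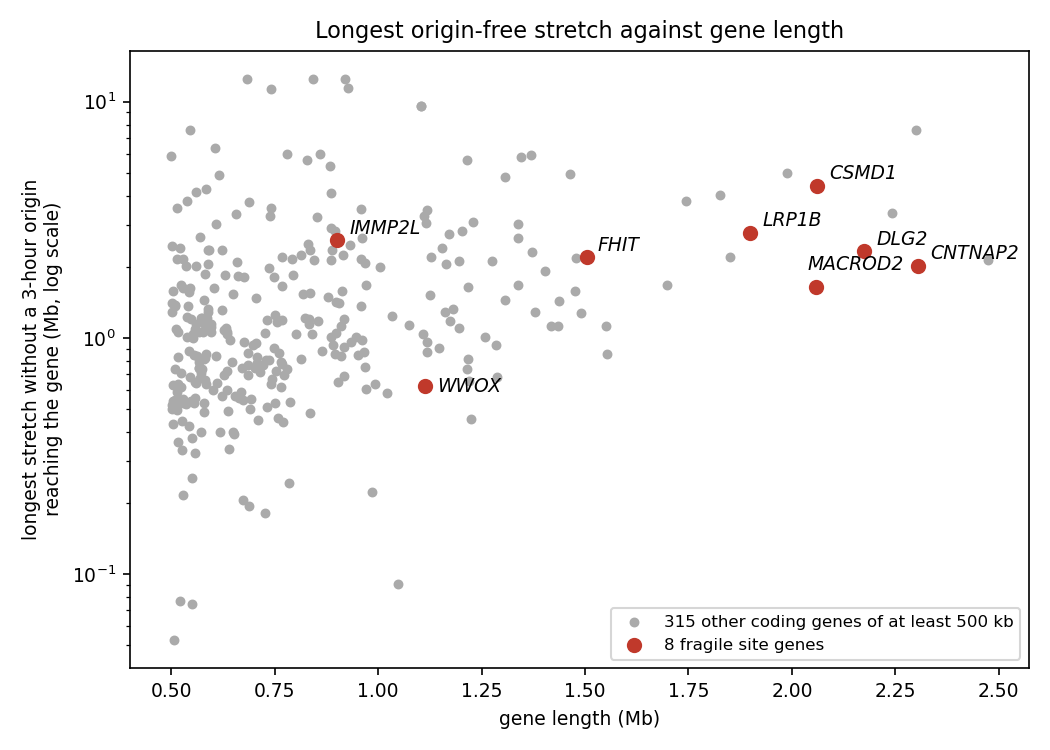
Length of the longest stretch without a 3-hour origin reaching a gene (y axis, Mb, log scale) against gene length (x axis, Mb) for the 8 genes (red, named) and the 315 other protein-coding genes of at least 500 kb (grey). CSMD1 is highest among the 8 with 4.40 Mb and WWOX lowest with 0.626 Mb, and grey points reach both higher and lower.

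The stretches ended in different ways. CSMD1 lay whole in its stretch, 46.8% of which was the gene itself, and the stretch ran from an origin with an efficiency of 1 to one at the start of MCPH1 with 0.9338. FHIT and LRP1B lay in theirs but for the bases up to their own 5′ origin, and the stretches reached beyond the 3′ end. In WWOX, MACROD2 and CNTNAP2 the stretch ran from the origin at the 5′ end to the single body origin, and covered 56.2%, 79.9% and 87.6% of the gene. In IMMP2L and DLG2 it ran from the body origin to beyond the 3′ end and covered 80.2% and 93.8%. So 5 of the 8 stretches were bounded on 1 side by a purine tract origin of the gene itself.

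Ini-seq 2 origins of 15 minutes did not break these stretches. The only one that touched them was the counterpart of the origin at the outer end of the CSMD1 stretch, and it reached 100 bp into it. Apart from CSMD1 itself, 6 protein-coding genes start inside the stretches. The start of SEL1L2 lay 0.142 kb outside the MACROD2 origin. FLRT3 in MACROD2, LRRN3 in IMMP2L, MYOM2 beyond CSMD1 and ANKRD42 and CCDC90B beyond DLG2 had no ini-seq 2 origin within 2 kb, and of these CCDC90B alone had SNS-seq peaks there. FLRT3 and LRRN3, which lie inside introns of their host gene, had a GC content of 39.7% and 40.5% in the 1 kb around the start.

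SNS-seq peaks were found in all 8 gene bodies, but sparsely. Peaks of both fractions, joined where they overlapped, numbered 163, or 11.6 per Mb (9.93 to 13.6), against 31.5 per Mb (30.8 to 32.2) in the other long genes and 80.7 per Mb in the genome. Per gene there were 50 in CNTNAP2, 34 in MACROD2, 27 in WWOX, 18 in FHIT, 17 in DLG2, 11 in LRP1B, 4 in CSMD1 and 2 in IMMP2L. In density WWOX was highest with 24.3 per Mb, followed by CNTNAP2 with 21.7, and CSMD1 lowest with 1.94, next to IMMP2L with 2.23. The median over the members was 9.91 per Mb and over the other long genes 17.0 per Mb, with quartiles of 9.78 and 36.4 in the latter. These other genes were shorter, with a median length of 716 kb against 1979 kb in the members. Densities were not compared at equal length, so a lower density cannot be ascribed to the members as fragile site genes. A higher density than that of CSMD1 was found in 97.8% of the other long genes, and a higher one than that of WWOX in 34.6%.

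The deficit was larger in the fraction of longer strands. In the gene bodies 132 peaks of the small and 62 of the large fraction were called, or 9.43 (7.89 to 11.2) and 4.43 (3.40 to 5.68) per Mb. In the other long genes the order was the reverse, with 19.3 and 21.0 per Mb, as it was in the genome with 50.2 and 62.9. In 7 of the 8 members the body held more peaks of the small than of the large fraction by a factor over 1.5, although those of CSMD1 (4 and 2) and IMMP2L (2 and 1) were few, and DLG2 with 12 and 10 was the exception. The same was found in 39.4% of the 312 other long genes with a peak. In CSMD1 the small peaks at 2.341 to 2.54 kb and 2.731 to 3.732 kb from the 5′ end lay inside a large peak. That large peak reached the 5′ window and was not counted in the body, so the excess in CSMD1 depends on this rule. Only 29 joined peaks, or 2.07 per Mb (1.39 to 2.98), were present in both fractions, against 7.45 (7.12 to 7.80) in the other long genes.

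The peaks of a gene were not evenly placed. In CNTNAP2 38 of the 50 lay in the last of 3 equal parts of the gene, as did 9 of the 10 present in both fractions. In MACROD2 and FHIT the first part held the most, with 19 of 34 and 10 of 18. The longest stretches with no SNS-seq peak of either fraction that reached into the genes were 1047 kb at CSMD1, 588 kb at IMMP2L, 504 kb at DLG2, 486 kb at CNTNAP2, 484 kb at FHIT, 388 kb at LRP1B, 314 kb at MACROD2 and 185 kb at WWOX. Those at IMMP2L and WWOX ran past the 3′ end of the gene. In the genome the median stretch without an SNS-seq peak was 1.40 kb, and that at CSMD1 ranked 51st by length. CSMD1 was thus first among the members for stretches without ini-seq 2 origins and for stretches without SNS-seq peaks alike.

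The longest intron took up between 17.4% (LRP1B) and 70.0% (WWOX) of its gene. It was longest of all in WWOX, intron 8 with 779 kb, which held the WWOX body origin and 13 and 5 peaks of the small and large fraction. Intron 3 of IMMP2L, with 524 kb or 58.2% of the gene, held the origin of that gene. The longest introns of CNTNAP2 (657 kb), DLG2 (577 kb), MACROD2 (545 kb), FHIT (523 kb), CSMD1 (388 kb) and LRP1B (330 kb) had no ini-seq 2 origin, and that of LRP1B, intron 2, had no interval of any list.

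The gene bodies were poor in GC. In windows of 1 kb the gene bodies had a mean GC content of 37.7%, against 38.8% in the other long genes and 40.9% in the genome, and 1.17% of their windows reached 50% GC, against 4.52% and 10.8%. LRP1B, with a mean of 34.8%, was poorest in GC and WWOX, with 42.6%, richest. The order of the members by GC was not that of their densities: CSMD1, with the lowest density of SNS-seq peaks, had a mean GC content of 38.4% and 30 windows of at least 50%, and CNTNAP2, with more than 10 times that density, had 37.5% and 33 windows. Over the genome 3-hour origins touched 0.0177% of windows with 35 to 40% GC and 67.2% of those with 65 to 70%. No body window of the 8 genes reached 65%, and of the 4 that reached 60%, in FHIT, CNTNAP2, DLG2 and MACROD2, none carried a 3-hour origin while 3 carried an SNS-seq peak. Over the genome 36.3% of the windows with 60 to 65% GC carried a 3-hour origin and 86.0% an SNS-seq peak, so 4 windows show nothing particular to these genes.

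To compare at equal GC content, each interval was counted in the 1 kb window of its centre, and the number in the gene bodies was set against the number that the same windows would have at the genome's rate for their GC step of 5 percentage points. For 3-hour origins 5 were found against 5.07, a ratio of 0.985 (0.320 to 2.30), and the ratio in the other long genes was 0.766 (0.696 to 0.842). By this count no lack of 3-hour origins was detectable in the members at equal GC content, but the answer depended on the way of counting. When every window that an origin touches was counted, the ratio was 0.483 (0.209 to 0.952), with an interval below 1. In the other long genes it was 0.573 (0.532 to 0.617). There 1 origin can count more than once, and the interval treats the 8 windows touched by the 5 origins as separate. That was the planned count, and the count by centre was added after the data had been seen.

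SNS-seq peaks were counted by centre in the same way. Of peaks of either fraction 163 were found against 448, a ratio of 0.364 (0.310 to 0.425), and in the other long genes the ratio was 0.645 (0.631 to 0.660). The value of 0.364 lies within the interval of 0.320 to 2.30 for the 5 origins, so a difference between the methods was not shown. For peaks in both fractions the ratios were 0.353 (0.236 to 0.507) and 0.642 (0.614 to 0.672). Both times the intervals of members and other long genes did not overlap, but they leave out the spread between genes and do not test the 2 groups. Peak density in the other long genes ran from 0 to 577 per Mb, and the groups also differ in length. For peaks of either fraction CNTNAP2 alone among the members, with 0.684, lay above the pooled ratio of the other long genes.

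Among the members the ratio for peaks of either fraction was lowest in CSMD1 with 0.0532 (0.0145 to 0.136), which rests on 4 peaks, and highest in CNTNAP2 with 0.684 (0.507 to 0.901). In between were IMMP2L with 0.109, DLG2 with 0.305, WWOX with 0.342, FHIT with 0.343, LRP1B with 0.387 and MACROD2 with 0.520. Neighbours in that order had overlapping intervals. The interval of CSMD1 ended below those of all other members except IMMP2L, which has 2 peaks and an interval of 0.0132 to 0.395.

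**Figure D5:**
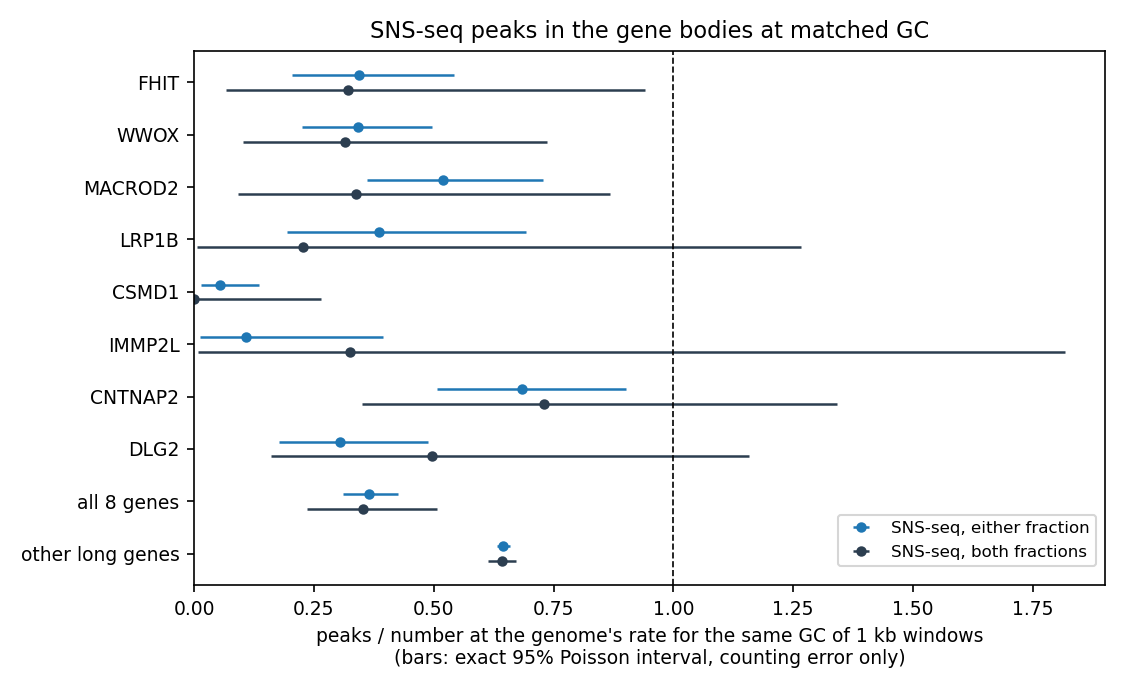
Number of SNS-seq peaks in each gene body divided by the number at the genome's rate for the same GC content of 1 kb windows (x axis, ratio, dashed line at 1), for peaks of either fraction (blue) and of both fractions (dark), with exact 95% Poisson intervals. All 8 genes lie below 1, from 0.0532 in CSMD1 to 0.684 in CNTNAP2 for either fraction, and together they lie below the other long genes. For both fractions the intervals of LRP1B, IMMP2L, CNTNAP2 and DLG2 reach above 1.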

How the data were processed

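Reads were aligned with Bowtie2 to hg38, per the submitters' notes. For ini-seq 2 the authors counted HL and LL reads in windows of 100 bp, joined windows with a log2(HL/LL) of at least 2 that lay within 500 bp, and kept intervals with an efficiency of at least 0.8. The deposited 3-hour value is this efficiency, a fraction, although it is headed as a Z-score, and the deposited 15-minute value is a score, which the authors computed as a Z-score over that list. SNS-seq peaks were called with MACS2 and deposited as positions only. No list holds counts, so the depth behind each interval is unknown, and library totals given in the methods were not used here. The genomic DNA library was not analysed here.

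Intervals were counted where at least 1 bp lay in a region, each interval once. Ini-seq 2 positions were read as 1-based and SNS-seq positions as BED. Gene records were those of GENCODE 44, and the hg38 sequence gave base composition. Counting was tested on simulated intervals. The members and lists were chosen with earlier results of these data known, and the purine limits after the values had been seen. The genes named are the 8 members and the genes that start at an origin in the flanks or inside a stretch. Alternatives were the width and position of the 5′ window, the centre rule, an efficiency of at least 0.9, each SNS-seq fraction, the flank size and leaving out each member. A count over further fragile site genes and the sequence of the origin in DLG2 are not reported here. Python 3.11.15, numpy 2.4.6, pandas 2.3.3, scipy 1.17.1, pysam 0.24.0 and matplotlib 3.10.9 were used.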

Additional observations from a re-analysis of the deposited data

How the results depend on the processing

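The 11 counts, densities, ratios and medians were recomputed under 45 alternatives, of which 34 left a count or median within 1.5 times its value or a density or ratio within its counting interval. That interval is wide for the body density of 3-hour origins. With no 5′ window left out this density rose from 0.357 to 0.785 per Mb, or from 5 to 11 origins, and still lay within it. With origins of an efficiency of at least 0.9 alone, 2 genes had a 3-hour origin at the 5′ end, 0 origins per Mb remained in the gene bodies and 1.0 per Mb in the flanks, and the median of the longest stretch was 3.46 Mb. Counting 15-minute origins in place of 3-hour ones gave 0 per Mb in the bodies and 0.877 per Mb in the flanks. SNS-seq peaks per Mb of gene body were 9.43 with the small fraction alone, 4.43 with the large fraction alone and 2.07 for peaks in both fractions. At equal GC content, counting every window that an interval touches gave ratios to the genome's rate of 0.483 for 3-hour origins, 0.349 for SNS-seq peaks of either fraction and 0.224 for peaks in both fractions, and counting each interval once at its centre gave 0.985, 0.364 and 0.353. The second count was added after seeing the data. With 1 member left out in turn, the body density of 3-hour origins ran from 0.305 to 0.419 per Mb, the flank density from 1.86 (without WWOX) to 3.15 per Mb, the SNS-seq density from 9.66 (without CNTNAP2) to 13.3 per Mb and the median stretch from 2.20 to 2.34 Mb. The 5 body origins are too few to rank the members by, and with 1 list per condition a site called in a single list cannot be told apart from a site missed in the others. No paired analysis was possible because each condition has 1 list.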
